A study of Danio rerio with 17 samples.

Results

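Open chromatin was compared between prdm16 mutant and wild type cranial neural crest cells of zebrafish embryos at 48 hours post fertilization. The members are all peaks of the 4 ATAC-seq libraries of the prdm16 set, merged into 15219 regions wherever peaks overlapped by at least 1 bp. The 8 ATAC-seq libraries of the series merge into 21650 regions. The wild type group has 2 libraries from wildtype embryos and the mutant group has 2 libraries from prdm16-/- embryos. In both groups the cells were GFP positive cells sorted from pooled, dissociated embryos that carry the sox10:GFP reporter. The labels give neither the mutant allele nor the number of embryos in a pool. They also do not say whether replicates came from separate clutches, so any p-value measures only the spread between these libraries, which may be technical. Fewer cells of an open type and less opening per cell cannot be told apart in such bulk libraries. The series also holds 9 RNA-seq libraries, which were not used here, and 4 ATAC-seq libraries of a prdm3 set with its own wild types.

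ATAC-seq uses a transposase that cuts and tags DNA where it is not wrapped in nucleosomes, so that a peak of reads marks an accessible promoter, enhancer or other open stretch. Prdm16 is a zinc finger protein of the PRDM family, whose PR domain is related to the SET domain of histone methyltransferases, and it is known as a regulator of cell fate in brown fat and in craniofacial development. Cranial neural crest cells leave the dorsal neural tube and form much of the cartilage and bone of the face, and sox10 is expressed in neural crest, some of its derivatives and the ear. The title of the series links Prdm3 and Prdm16 to Wnt/β-catenin activity and to cartilage differentiation, and the comparison asks which open regions differ without Prdm16. Positions are in danRer11. No genome or annotation of that build was used here, so the regions carry no gene names, the sorted cells could not be checked against accessibility at their marker genes, and the prdm16 locus was not examined.

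Few regions separated the genotypes by presence of a peak, while nearly all of the strongest peaks were shared by every pair of libraries. Regions open in both mutants only were mostly weak peaks. Those open in both wild types only were near the middle of the list in wild type 1 and lower in wild type 2. Of the 1000 strongest peaks of each library, between 989 and 1000 overlapped a peak in each of the other libraries. A peak lay in all 4 libraries in 4842 of the 15219 regions (31.8%), in 3 libraries in 1795, in 2 libraries in 3595 and in 1 library in 4987. Both mutant libraries and neither wild type library held a peak in 50 regions, 0.329% of all. Both wild type libraries and neither mutant library held one in 99 regions, 0.651% of all. The peak lists carry no read counts, so these are counts of presence with no test, and a region without a peak may have been open below the authors' calling threshold.

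The libraries differed in how many peaks they hold, and the groups overlapped. Wild type 1 has 14074 peaks, wild type 2 has 6777, mutant 1 has 10682 and mutant 2 has 6590. The library with the most peaks is wild type, and within each replicate number the mutant has fewer peaks than the wild type. On the log2 scale the mutants minus the wild types came to -0.219 (wild type 13.3 ± 0.746, mutant 13.0 ± 0.493, SD, n = 2 each; two-sided exact permutation test, p = 0.667, where 2 against 2 libraries cannot give a p below 0.333). Without wild type 1 the difference was 0.308, and without mutant 2 it was 0.129, and each of these leaves 1 replicate number with a single library. The peaks cover 9.78 Mb in wild type 1, 5.44 Mb in wild type 2, 7.59 Mb in mutant 1 and 5.16 Mb in mutant 2. Read totals are not given with the peak lists, so the depth of each library is unknown.

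Regions were shared by replicate number more often than by genotype. Among the 3595 regions held by exactly 2 libraries, 3260 were held by a wild type and a mutant library with the same number, 149 by 2 libraries of 1 genotype and 186 by the remaining crossed pairs. The pair of wild type 1 and mutant 1, the libraries with the most peaks, alone held 3087. Wild type 1 by itself held 4044 further regions, against 150 for wild type 2, 625 for mutant 1 and 168 for mutant 2.

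To set aside the unequal numbers of peaks, the 6590 peaks with the highest −log10 p, the significance the authors' peak caller gave each peak, were taken from each library and merged into 9287 regions. All 4 libraries then held 3802 regions (40.9%). Both mutants alone held 125 regions, 1.35% of those tested, and both wild types alone held 151, 1.63%. Alone here means without a peak among the 6590 of the other libraries, where a lower-ranked peak may lie. With no peak of any rank in the other group, 7 regions were top-ranked in both mutants and 37 in both wild types. The pair of wild type 1 and mutant 1 held 596 and that of wild type 2 and mutant 2 held 639, while the crossed pairs held 150 and 124. Each genotype pair was thus about as common as a crossed pair, and each same-number pair was several times as common. Ranking by signal (the area under a peak) instead of −log10 p gave 114 regions for the mutant pair and 174 for the wild type pair, with 916 regions for the same-number pairs together and 276 for the crossed pairs together.

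**Figure D1:**
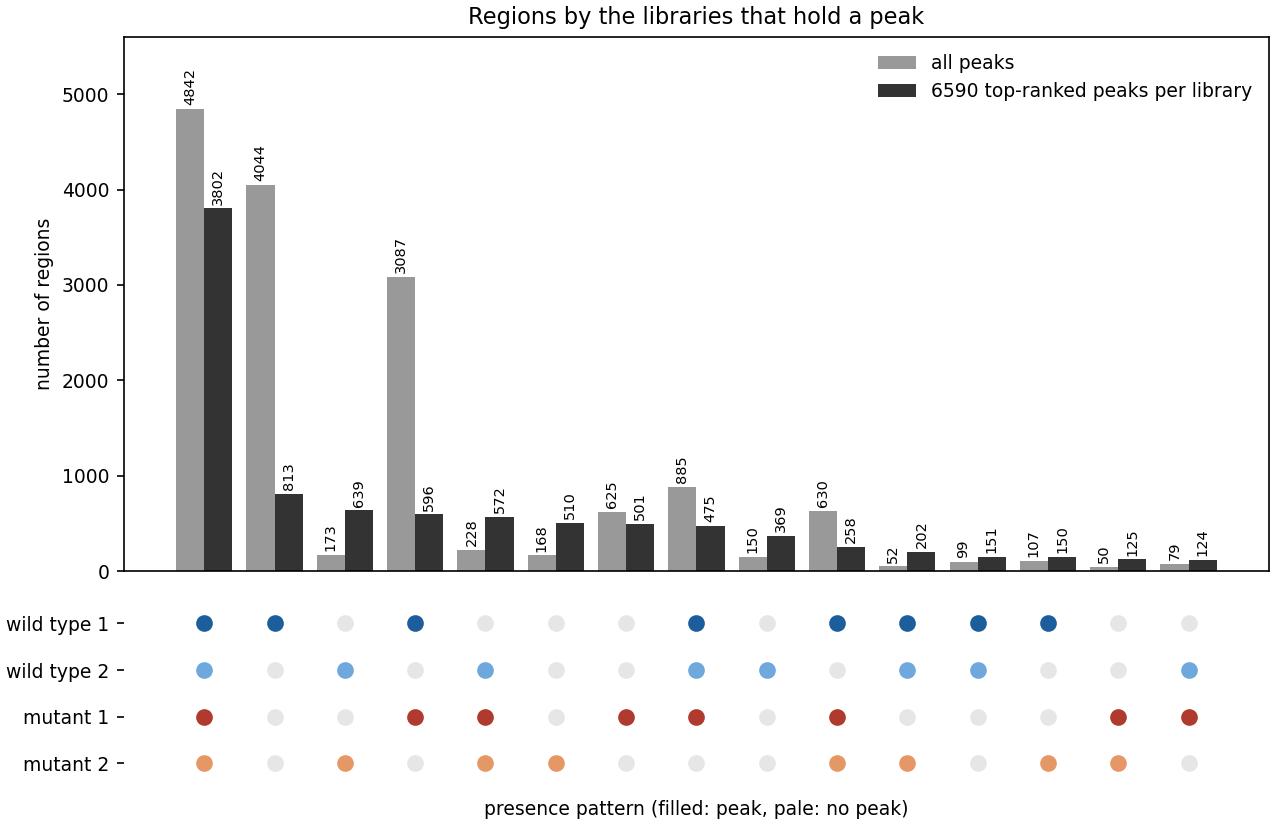
Number of merged regions (vertical axis) for each combination of libraries that hold a peak (dots below), with all peaks (grey) and with the 6590 top-ranked peaks per library (black). The mutant pair holds 50 and 125 regions and the wild type pair 99 and 151, while wild type 1 with mutant 1 holds 3087 and 596.

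Each same-number pair held more regions than each of the other pairs at every number of top-ranked peaks taken. With 1000 peaks per library the mutant pair held 10 regions and the wild type pair 23, against 90 and 118 for the same-number pairs. With 3000 peaks the mutant pair held 43 and the wild type pair 90, against 234 and 227. The wild type pair held more regions than the mutant pair at every number from 500 to 6590 by −log10 p. By signal the order of the genotype pairs was reversed at 500 peaks, with 7 regions for the mutant pair and 1 for the wild type pair.

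**Figure D2:**
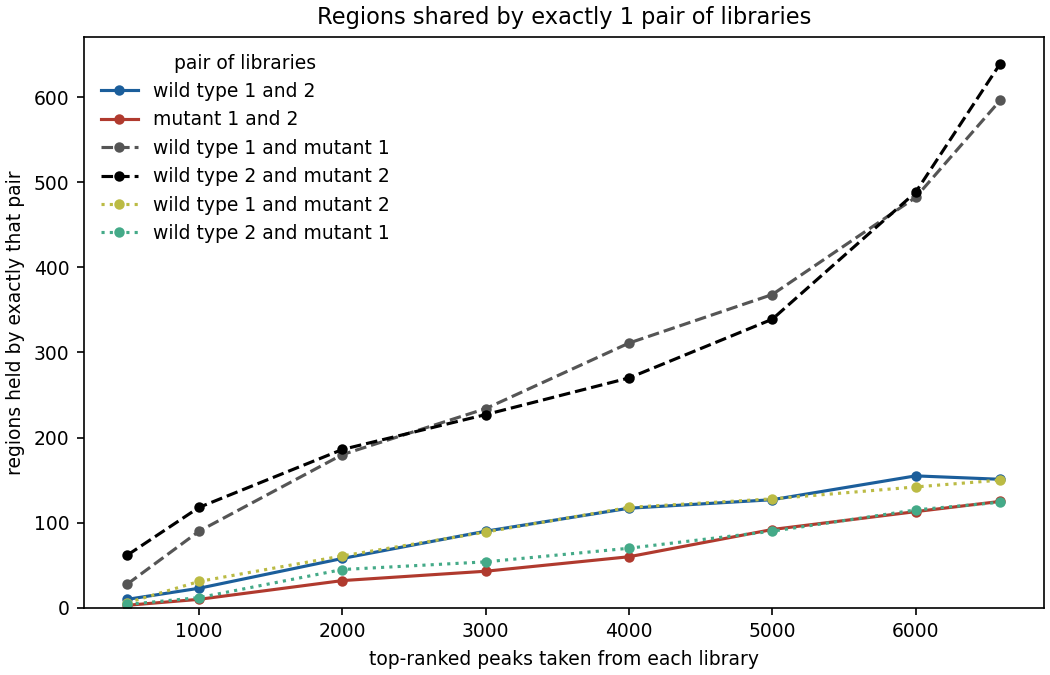
Regions held by exactly 1 pair of libraries (vertical axis) against the number of peaks with the highest −log10 p taken from each library (horizontal axis). At 6590 peaks the same-number pairs (dashed) reach 596 and 639, and the genotype pairs (solid) and crossed pairs (dotted) lie between 124 and 151.

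Wild type 1 stood apart from wild type 2 in the same way. Of the regions held by either of these libraries at equal numbers, 57.7% were held by both, against 60.0% for the mutants with each other. Wild type 1 shared 66.9% with mutant 1 and 53.9% with mutant 2. Wild type 2 shared 70.7% with mutant 2 and 63.8% with mutant 1. In the prdm3 set, wild type 1 shared 74.7% and 75.7% with the prdm3 mutant libraries, more than with any library of its own set. Wild type 2 shared 67.2% with the prdm3-set wild type 2. Without wild type 1, the regions held by both mutants and not by wild type 2 numbered 687, and those held by wild type 2 and neither mutant numbered 253. Without wild type 2 these counts were 284 and 4153, without mutant 1 they were 223 and 988, and without mutant 2 they were 679 and 151.

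**Figure D3:**
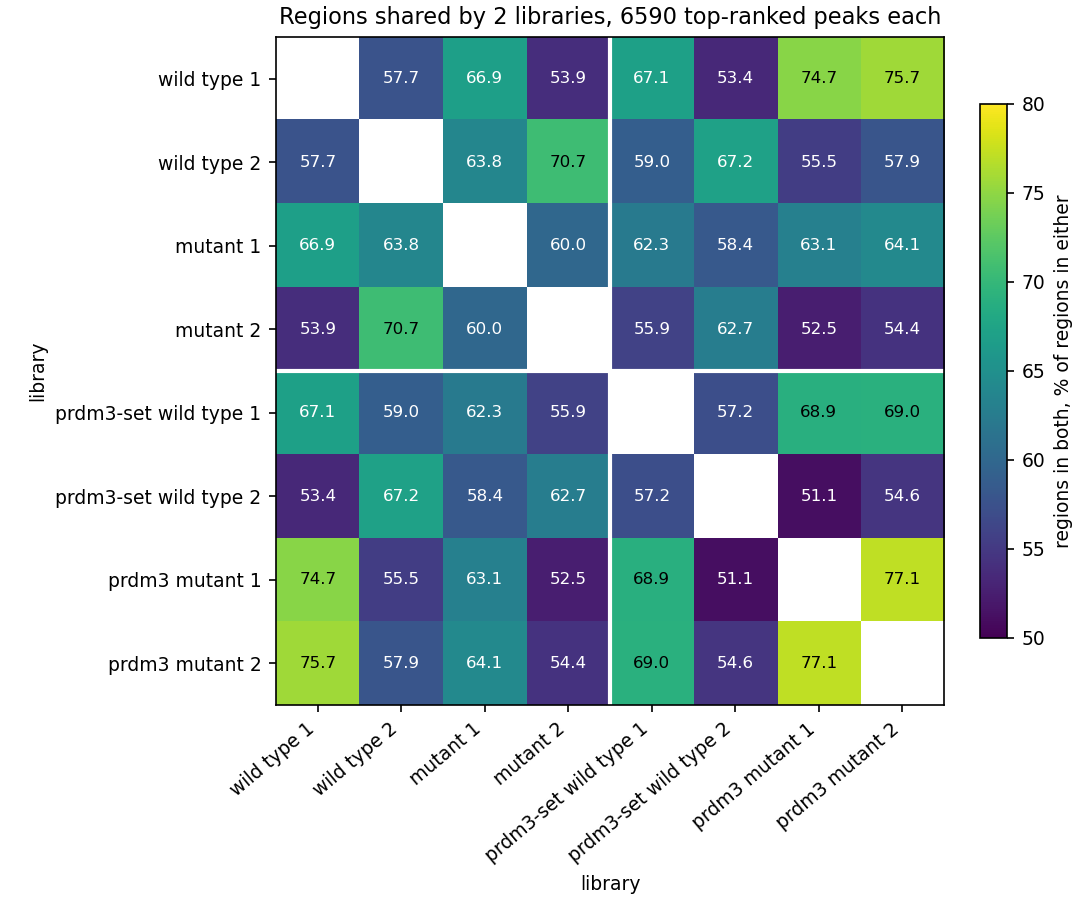
Regions held by both libraries as a percentage of those held by either, for each pair of the 8 ATAC-seq libraries with 6590 top-ranked peaks each (color scale from 50% to 80%). Wild type 1 is most like the prdm3 mutants (74.7% and 75.7%), and wild type 2 is most like mutant 2 (70.7%).

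The 50 regions open in both mutants only were weak peaks. The percentile rank of a peak is the percentage of its own library's peaks that it equals or exceeds in −log10 p, with ties averaged, and the lower of the ranks in the libraries that hold a region had a median of 8.16 and a maximum of 36.6 in these regions. None lay above the 50th percentile in both libraries. The median peak was 468 bp wide in mutant 1 and 542 bp in mutant 2. Only 7 of the 50 were among the 6590 top-ranked peaks of both mutants. Mutant 2 has 6590 peaks in all, so this condition could drop regions only by their rank in mutant 1. In the wild types of the prdm3 set, 38 of the 50 had a peak in at least 1 library and 21 in both, which leaves 12 with no peak in any of the 4 wild type libraries of the series. Over all 15219 regions, 11776 had a peak in at least 1 prdm3-set wild type and 6403 in both. By these counts the members' shares are near those of all regions, but library by library they are not. Prdm3-set wild type 1 held 24 of the 50, a lower share than the 75.1% of all regions that it held. Prdm3-set wild type 2 held 35 of the 50, a higher share than its 44.3% of all regions. The prdm3 mutants held 11 (22.0%) and 16 (32.0%) of the 50, below the 89.0% and 84.9% of all regions that they held. Wild type 2 with mutant 2, another pair without wild type 1, had shares of 30.1% and 32.9% in the prdm3 mutants.

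The strongest of these regions by the lower rank was chr17:42949103-42949515, with a −log10 p of 3.69 in mutant 1 and 3.65 in mutant 2, at percentiles 37.6 and 36.6. Both wild types of the prdm3 set had a peak there, and neither prdm3 mutant did. The next was chr24:12466334-12466729, with a −log10 p of 3.94 and 3.61 in mutants 1 and 2, and it too had a peak in both prdm3-set wild types and neither prdm3 mutant. Then came chr4:67298026-67298505 at 3.72 and 3.61, and chr22:10245172-10245723 at 3.60 and 3.88. All 4 libraries of the prdm3 set had a peak in the chromosome 22 region. The fifth, chr10:10894748-10895177, had a −log10 p of 3.83 and 3.53 and was without a peak in prdm3-set wild type 2 alone. The other 5 of the strongest 10 were chr25:26265620-26265968, chr12:14350704-14351230, chr17:49076634-49076956, chr24:12532513-12532929 and chr12:14346829-14347332, at lower percentiles from 22.1 down to 13.8. Every one of these 10 regions had a peak in a wild type library of the other set. With equal numbers of peaks 5 of the 10 were held by the mutant pair alone when ranked by −log10 p, and with 3295 peaks per library 0 were. Both counts restate the −log10 p ranks of these regions, since none has a peak in a wild type library of the prdm16 set. Ranked by signal at equal numbers, 1 of the 10 was held by that pair alone.

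The 99 regions open in both wild types only had higher percentile ranks than those of the mutant pair. These percentiles are taken within lists of different length, so they are not on a common scale between the pairs. The lower percentile rank of the 99 regions had a median of 20.2 and a maximum of 69.7, and 15 of the regions lay above the 50th percentile in both wild types. Among the 6590 top-ranked peaks of both wild types there were 37 of the 99. This cut leaves out far more of the 14074 peaks of wild type 1 than of the 6777 peaks of wild type 2. The median −log10 p of the 99 regions was 4.04 in wild type 1 and 3.43 in wild type 2, against 4.12 and 3.84 for all peaks. Their median percentile was 45.9 in wild type 1 and 24.3 in wild type 2. Of the 99, 91 had a peak in prdm3 mutant 1 and 91 in prdm3 mutant 2 (91.9% each), which is near the 89.0% and 84.9% of all 15219 regions with a peak there. The prdm3-set wild types held 87 (87.9%) and 51 (51.5%), against 75.1% and 44.3% of all regions. For comparison, regions held by all 4 prdm16-set libraries had a median lower percentile of 48.3, and 4828 of the 4842 had a peak in a prdm3-set wild type.

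The strongest of them was chr4:35240483-35240663, with a −log10 p of 4.97 in wild type 1 and 4.23 in wild type 2 (percentiles 78.5 and 69.7). The second was chr10:16036453-16036917, with 5.25 and 4.14. Both had peaks in all 4 libraries of the prdm3 set. Next came chr15:436642-437111 with 4.58 and 4.07, and chr24:20927062-20927237 with 4.79 and 4.07, each with a peak in every prdm3-set library but wild type 2. The fifth was chr7:61598866-61599046 with 4.40 and 4.09. The remaining 5 of the strongest 10 were chr20:1316644-1317089, chr5:1274327-1274854, chr9:41024887-41025478, chr10:153508-153902 and chr20:23026186-23026385. All 10 had a peak in both prdm3 mutants. With equal numbers of peaks 10 of the 10 were held by the wild type pair alone when ranked by −log10 p, and with 3295 peaks per library 2 were. Both counts restate the −log10 p ranks by which the regions were chosen, since none has a mutant peak. Ranked by signal at equal numbers, 1 of the 10 was held by that pair alone.

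**Figure D4:**
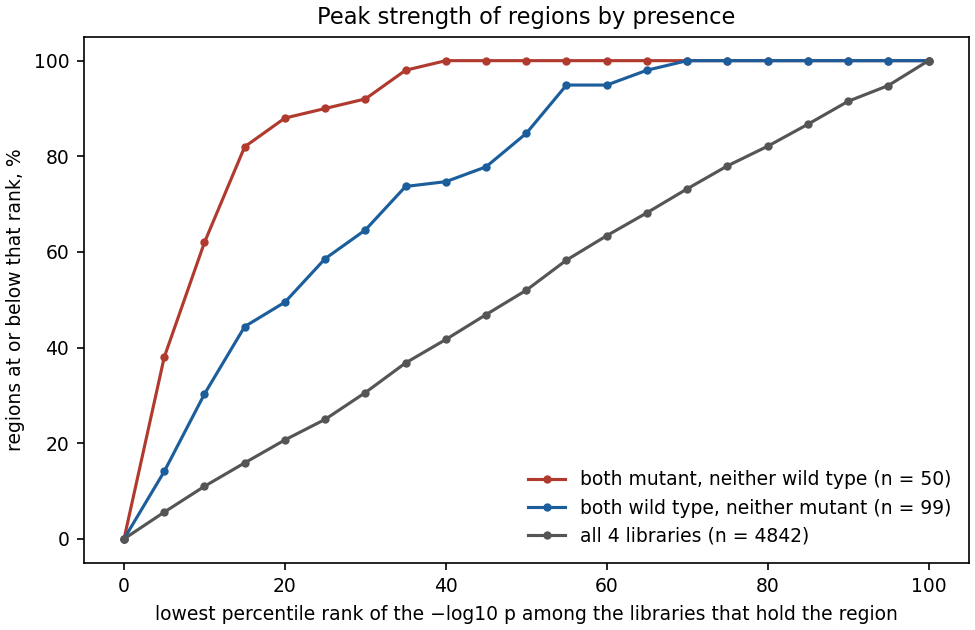
Cumulative percentage of regions (vertical axis) by the lowest percentile rank of −log10 p among the libraries that hold the region (horizontal axis). Of the regions of the mutant pair, 82.0% lie at or below the 15th percentile, against 44.4% for the wild type pair and 15.9% for regions of all 4 libraries. Percentiles are within each library's own list, and the lists differ in length.

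Very narrow peaks were part of the wild type regions. Peaks of 200 bp or less made up 11 of the 103 wild type 1 peaks in these regions (10.7%, against 2.54% of all its peaks) and 8 of the 99 wild type 2 peaks (8.08%, against 2.27%). In the regions of the mutant pair there were 0 among 50 peaks in each mutant library. All peaks of that width made up 0.599% of mutant 1 and 3.35% of mutant 2. Most of the strongest 10 regions of the wild type pair had a wild type 2 peak of 200 bp or less. These peaks ran from 157 bp (chr15:436642-437111) to 185 bp (chr10:153508-153902). The wild type 2 peaks were wider in chr10:16036453-16036917 (327 bp), chr20:1316644-1317089 (343 bp) and chr5:1274327-1274854 (512 bp).

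The 4842 regions held by all 4 libraries had a median region width of 825 bp, against 589 bp for all regions. Merging peaks of more libraries can itself widen a region. Their median lower percentile was 48.3, so many of them were not strong. The 5 strongest of them were wide. The strongest was chr11:15106737-15116069, with a −log10 p of 16.6 in wild type 1, 17.4 in wild type 2, 17.0 in mutant 1 and 17.8 in mutant 2, and peaks between 8872 and 9283 bp wide. The second was chr24:12366846-12371435, at 16.7, 17.3, 17.1 and 17.8 in the same order. The third was chr17:39939036-39942955, at 14.8, 15.9, 15.6 and 16.2. The others were chr24:12401786-12416885, where every library had a peak of 15087 to 15099 bp, and chr7:53010733-53017567. In each of the 5, wild type 1 had the lowest −log10 p and mutant 2 the highest, and the groups overlapped. That order is not particular to these regions. The highest −log10 p of any peak was 16.9 in wild type 1, 17.7 in mutant 1, 18.4 in wild type 2 and 18.9 in mutant 2. With depth unknown, −log10 p may not be on a common scale between libraries. Of 84 regions with a peak wider than 5 kb in any library, 83 had a peak in all 4.

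Among the 3802 regions held by all 4 libraries at equal numbers, the order of peak strength was compared by rank, with rank 1 the highest −log10 p. Each library had only 395 to 493 distinct −log10 p values, so many peaks were tied. Ties were ordered by signal and then by position, here and wherever the top-ranked peaks were taken by −log10 p. Both mutants ranked a region above both wild types in 361 regions (9.50%) and below both in 547 (14.4%). This balance turned without wild type 1, with 1151 regions higher and 1023 lower, and without mutant 2, with 1185 and 1100. An order with both mutants on the same side can also arise without a genotype difference, and these counts were not tested. The median difference, mean wild type rank minus mean mutant rank, was -2.50 ranks. The mean rank was higher in the mutants by more than 2000 ranks in 27 regions and lower by as much in 30. Spearman's rho of the ranks over these regions was 0.734 between the wild types and 0.763 between the mutants, and 0.884 between wild type 2 and mutant 2. These correlations are across regions, which are not independent replicates, and each list was cut at the same number.

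The largest difference of mean rank toward the mutants was at chr12:34762602-34763839, ranked 4125 and 4916 in wild types 1 and 2 and 1153 and 1163 in mutants 1 and 2. The next were at chr21:28923150-28923783, ranked 5567 and 6530 in the wild types and 3071 and 2646 in the mutants, and at chr24:30270992-30272008, ranked 6007 and 5863 against 2798 and 3523. In the other direction, chr13:5569047-5570245 was ranked 2382 and 1835 in the wild types and 6251 and 6057 in the mutants. There followed chr17:11015328-11016012, at 2107 and 2252 against 5597 and 4807, and chr4:25167626-25168603, at 2300 and 3055 against 5598 and 5636. In these 6 regions the groups were apart by the rule that chose them, so the ranks are a description. By width, regions over 2 kb were ranked higher in both mutants in 21 of 280 cases (7.50%) and lower in 6 (2.14%). Both shares are below the 9.50% and 14.4% of all 3802 regions. Regions of 1000 to 2000 bp were ranked higher in 70 of 914 (7.66%) and lower in 133 (14.6%). Those of 500 to 1000 bp were ranked higher in 235 of 2372 (9.91%) and lower in 376 (15.9%). Regions up to 500 bp were ranked higher in 35 of 236 (14.8%) and lower in 32 (13.6%).

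The median width of all peaks was lower in both mutants than in both wild types. The median peak width was 578 bp in wild type 1, 586 bp in wild type 2, 549 bp in mutant 1 and 573 bp in mutant 2, so both mutants lay below both wild types. The difference was -21.0 bp (582 ± 5.66 against 561 ± 17.0, SD, n = 2 each; two-sided exact permutation test, p = 0.333, the smallest that can be reached, and 1.00 after Benjamini-Hochberg adjustment over 9 measures of the libraries). At equal numbers of peaks the medians were 689, 585, 602 and 573 bp in the same order, and the groups overlapped. Mean width, the percentage of peaks over 2 kb, the median −log10 p, the percentage of peaks on unplaced scaffolds and the other measures overlapped between the groups.

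Widths were also compared peak by peak. In the 4293 regions with exactly 1 peak in each library, both mutant peaks were narrower than both wild type peaks in 719 regions (16.7%) and wider in 200 (4.66%). With so few libraries such an order can also arise without a genotype difference, and these counts were not tested. The median log2 width of mutant minus wild type was -0.05. The median widths were 755 bp in wild type 1, 611 bp in wild type 2, 655 bp in mutant 1 and 593 bp in mutant 2. Wild type 1 had the highest of these medians and mutant 2 the lowest, and the groups overlap. The median absolute log2 width difference was 0.24 between the wild types, 0.13 between the mutants and 0.09 between wild type 2 and mutant 2. The median distance between summits was 10 to 16 bp between libraries, and 64.7% to 72.8% of summits lay within 50 bp of each other.

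On 23 of the 25 chromosomes the share of a library's peaks overlapped between the groups. Chromosome 10 held 3.64% and 3.53% of the peaks in the wild types and 3.50% in each mutant. Chromosome 12 held 3.35% and 3.24% in the wild types and 3.40% and 3.45% in the mutants. For each of them the two-sided exact permutation test over libraries gave p = 0.333 (adjusted p = 1.00 over 25 chromosomes). That is the smallest p the test can give with 2 against 2 libraries, so no chromosome could have passed. At equal numbers of peaks 5 chromosomes did not overlap, with chromosomes 10 and 12 among them, and with the prdm3-set wild types added to the wild type group 0 chromosomes did not overlap.

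**Figure D5:**
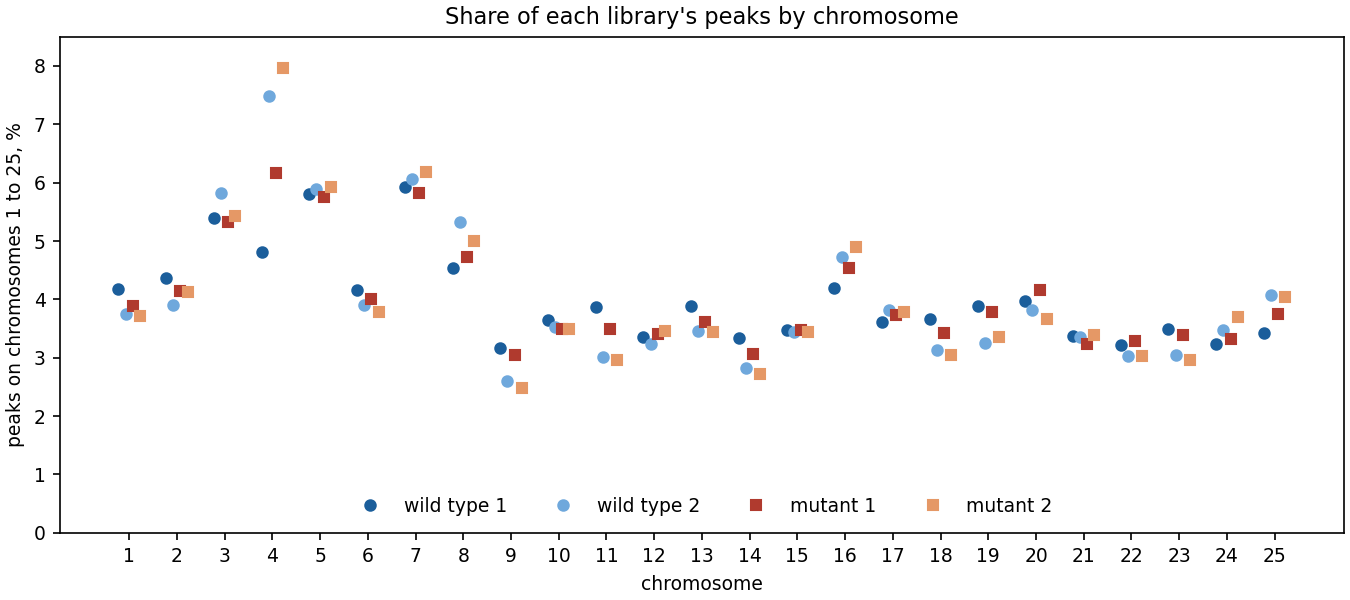
Percentage of each library's peaks on chromosomes 1 to 25 (vertical axis) by chromosome (horizontal axis), circles for wild type and squares for mutant libraries. Chromosome 4 spreads most, from 4.81% in wild type 1 to 7.96% in mutant 2, and the genotypes overlap there.

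Chromosome 4 differed most between libraries, and the groups overlapped. It held 4.81% and 7.48% of the peaks in wild types 1 and 2 and 6.17% and 7.96% in mutants 1 and 2. Most of the spread lay between 25 and 70 Mb, on the long arm, which is known in zebrafish for its repeats and heterochromatin. The bounds of this stretch were chosen after the values were seen. That stretch held 2.23% of all peaks in wild type 1, 5.15% in wild type 2, 3.86% in mutant 1 and 5.39% in mutant 2. Of the 50 regions of the mutant pair, 11 (22.0%) were on chromosome 4, which held 5.78% of all regions, and all 11 lay in that stretch. Other combinations without wild type 1 also had high shares on chromosome 4. The share was 25.4% for wild type 2 with mutant 2, 24.6% for all libraries but wild type 1, and 12.7% for wild type 2 with mutant 1. Mutant 1 alone had 14.6% and mutant 2 alone 17.3%, and wild type 2 alone had 21 of its 150 regions there. Combinations that include wild type 1 ran from 3.16% to 15.4%, the highest being that of all libraries but mutant 1. Of the 99 regions of the wild type pair 5 were on chromosome 4 and 2 in the stretch. Wild type 1, the library with the lowest share there, was the only library without a peak in 54 regions of the stretch. The part of this library in the 11 regions was not tested. Outside the stretch the mutant pair held 39 regions and the wild type pair 97.

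The regions of each pair also lay close together at a few places, found after the values were seen. The places were picked for holding 3 or more such regions, so their counts are high by that rule. They were not tested, and the share over all regions that a pair holds was not computed. Over all regions, both wild types held 99 alone, 885 with mutant 1 only, 52 with mutant 2 only and 4842 with both mutants. Both mutants held 50 alone, 630 with wild type 1 only, 228 with wild type 2 only and the same 4842. The wild type pair had 6 of its 99 regions between 34 and 35 Mb on chromosome 8, where both wild types shared 82 regions in all. They were chr8:34168960-34169535, chr8:34588051-34589116, chr8:34614136-34615226, chr8:34632690-34633620, chr8:34671683-34673476 and chr8:34971992-34972711. Their −log10 p ran from 2.95 to 3.38 in wild type 1 and from 2.82 to 3.27 in wild type 2, all weak, and every one had a peak in both prdm3-set wild types and in prdm3 mutant 1. The mutant pair had 3 of its 50 regions at 12 to 13 Mb on chromosome 24, of 64 that both mutants held there. It had 3 of 36 at 14 to 15 Mb on chromosome 12 and 3 of 39 at 53 to 54 Mb on chromosome 5.

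These places are dense in peaks. Windows of 100 kb with 15 or more regions, a rule set after the values were seen, numbered 31 in 25 blocks and held 692 regions, 4.55% of all. In them 68.6% of regions had a peak in all 4 libraries, against 30.1% elsewhere. The mutant pair held 1.59% of the regions in dense windows and 0.268% elsewhere, and the wild type pair 1.16% and 0.626%. Wild type 1 had a peak in 78.3% of the regions in dense windows, against 90.9% elsewhere. The other libraries had higher shares in dense windows. These were 87.3% against 40.6% in wild type 2, 89.9% against 67.5% in mutant 1 and 82.9% against 39.1% in mutant 2. The part of wild type 1 in the counts of the mutant pair was not tested. The fullest block was on chromosome 24 between 12400001 and 12600000, where peaks covered 58.3% of the sequence in 69 regions. Wild type 1 had a peak in 49 of these, wild type 2 in 58, mutant 1 in 64 and mutant 2 in 62. In the prdm3 set, the wild types had a peak in 67 and 68 and the mutants in 45 and 53. The prdm3-set wild types thus held more of these regions than either prdm16 mutant.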

How the data were processed

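ATAC-seq peaks of 2 wild type and 2 prdm16 mutant libraries were used. The authors deposited 1 peak list for each library, and every peak carries a signal, a −log10 p and a score by their peak caller. In all 93349 peaks of the 8 ATAC-seq libraries the deposited score was 1000 times signal over width, capped at 1000, within 1. The submitters' processing notes name cutadapt, Bowtie2 2.4.4, Genrich, bedtools 2.30.0 and danRer11, without their order. These values are the authors' own, and peaks were ranked and filtered by them inside 1 library at a time. Depth is unknown.

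Peaks were merged at 1 bp of overlap in Python 3.11.15 with pandas 2.3.3, and the merging was tested on simulated peaks. Libraries were compared by two-sided exact permutation tests with Benjamini-Hochberg adjustment (threshold 0.05). Regions named are the 10 per genotype pair and the 5 of all 4 libraries with the highest lowest percentile, and the 3 per direction with the largest rank difference. Members, lists and rules were chosen with earlier results of these data known. Nearest genes, gene lists and motifs were not analysed here, since no annotation of the build was used. The RNA tables were not used.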

Additional observations from a re-analysis of the deposited data

Results flagged for a closer look

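The share of peaks on chromosome 10 differed by -0.0842 percentage points between prdm16 mutant and wild type libraries, with both mutants (3.50% each) below both wild types (3.64% and 3.53%). In the prdm3 set both mutants (3.61% and 3.65%) lay above both of their own wild types (3.52% and 3.50%). The difference between the sets was not tested.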

How the results depend on the processing

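The regions of the mutant pair (50) and of the wild type pair (99) numbered 125 and 151 with equal numbers of peaks ranked by −log10 p. Ranked by signal they numbered 114 and 174. In both rankings a lower-ranked peak in the other group does not count. They numbered 12 and 44 with all 4 wild types of the series merged in, and 7 and 37 when the holding peaks had to be top-ranked. Each of the latter settings adds a condition, so lower counts follow by construction. Every peak of mutant 2 counts as top-ranked, since its list sets the equal number. Leaving out 1 library gave 223 to 687 and 151 to 4153, by construction since a lone library then stands for its group. The other 6 settings kept both counts within 1.5 times, at 39 to 52 and 89 to 99. Of these, leaving out chromosome 4 from 25 to 70 Mb was chosen after seeing the data. Taking 3295 peaks per library gave 47 and 89, but these are largely other regions. Only a region above the 50th percentile in both holders could remain there, which held for 0 of the 50 and 15 of the 99. That condition is not sufficient, since 3295 peaks are a smaller part of the longer lists, such as the 14074 peaks of wild type 1. Of the strongest 10 regions of the wild type pair, 2 remained. Chromosomes without overlap numbered 5 with equal numbers, 0 with all 4 wild types and 8 to 19 with 1 library left out. Regions ranked higher and lower in both mutants numbered 140 and 263 with 3295 peaks per library, and 934 to 1185 and 1023 to 1541 with 1 library left out, where higher outnumbered lower without wild type 1 and without mutant 2. The log2 peak number ran from -0.746 to 0.308 with 1 library left out, and reversed without wild type 1 (0.308) and without mutant 2 (0.129); the cause was not tested. The difference in median width stayed negative under every setting run, from -66.0 bp (signal ranking, exact permutation p = 0.667) to -9.00 bp. With the replicate number as a block the differences were -0.219 and -21.0 bp (exact permutation p = 0.50 each, the smallest possible). The labels do not say what a number shares, and deviations of rank correlated at 0.213 between same-numbered libraries. The share of peaks at gene starts was not run, because no annotation of the build was used here. Unknown depth limits every count of presence.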
